A study of Homo sapiens with 68 samples.

Results

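Narrow peaks with many reads are intervals of 10 nt or less whose listed read number is 100 or more, taken from the crosslinked 50k libraries made without gel purification. Width and read number chose them, so both are given as a description. There were 2834 such peaks among the 15800601 peaks of the 68 libraries of the series. They made up 0.0961% of all peaks of their 8 source libraries and 5.33% of the 53175 peaks there with a read number of 100 or more. On the same strand they joined into 1085 sites, in 482 genes by Ensembl identifier. Of the peaks, 196 had the same interval in the same library listed under more than 1 gene. Of the sites, 204 carried more than 1 gene identifier. Counts of peaks and genes therefore include some intervals more than once.

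TLC-CLIP maps where a protein touches RNA: ultraviolet light fixes protein to RNA, an antibody pulls the protein down, RNase trims the RNA, and the remaining fragments are sequenced. The lists come from HEK293T, a human embryonic kidney line. For each of hnRNPA1, hnRNPc, hnRNPI and RBFOX2 (antibody named RBM9), 5 kinds of library were compared, with 2 replicates each, 50000 cells and 0.005 U of RNase per the labels. These were the source libraries (254 nm light, no PAGE), the same with RecJ, an exonuclease used to remove adapter, the crosslinked libraries with PAGE (gel separation and excision of the protein-RNA complexes), and libraries titled noUV without and with PAGE. The protocol text of the noUV libraries is that of the others, crosslinking included; that they lack it is read from their titles and from the design text. They were deposited apart from the others, so any difference of preparation and the omission of UV cannot be told apart. Nothing says that replicates came from separate cultures, so p-values measure the spread between these libraries, which may be technical.

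RNA-binding proteins of the hnRNP family coat nascent transcripts. hnRNPI, also known as PTB, prefers pyrimidine-rich RNA, hnRNPc prefers runs of uridine, and RBFOX2 is a splicing regulator that recognises a short GCAUG element. Abundant structured RNAs, such as spliceosomal, nucleolar, transfer and ribosomal RNAs, are known to be recovered in many such experiments whatever the protein. A peak of a few nucleotides is narrower than a typical CLIP fragment, so its interval does not cover a whole fragment of that size.

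RBFOX2 gave most of the narrow peaks. Its source libraries held 956 and 974, those of hnRNPI 216 and 151, those of hnRNPA1 152 and 167, and those of hnRNPc 99 and 119. The peaks of RBFOX2 formed 832 sites in 417 genes, those of hnRNPI 164 sites in 98 genes, those of hnRNPA1 157 sites in 74 genes and those of hnRNPc 104 sites in 48 genes. The median width was 6 nt for each protein. The median read number was 1141 for hnRNPI, 632.5 for hnRNPc, 523.5 for RBFOX2 and 367 for hnRNPA1. The highest was 161964, in RBFOX2. At the edges of the rule, 285 members were exactly 10 nt wide while 273 peaks with 100 reads or more were 11 nt wide, and 117 members had read numbers of 100 to 109 while 135 peaks of 10 nt or less had 90 to 99.

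Most narrow peaks lay in runs of touching or overlapping listed peaks, here called stacks. Read coverage itself was not looked at. In each source library 88.2% to 96.3% of them touched or overlapped another listed peak of the same gene, against 59.7% to 75.0% of the wider peaks with 100 reads or more and 5.69% to 13.0% of all peaks. The stack around a narrow peak had a median width of 76 to 127 nt and a median of 4 to 7.5 pieces, against 203 to 329 nt and 3 pieces for the wider peaks. Among the peaks that touched or overlapped another, only 5.29% to 12.1% of narrow ones carried the highest read number of their stack. For wider ones it was 44.3% to 60.1%. Neighbouring pieces often repeated a read number: 11.1% to 20.5% of narrow peaks had another narrow peak of the same gene and library within 100 nt whose number differed by at most 1%. Of the wider peaks, 2.48% to 4.81% had such a wider neighbour. Several members can therefore count the same reads, and members are not independent of each other.

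The files pair no gene identifier with a name or an RNA class, and 0 identifiers could be matched to a symbol in the gene table used here. Place and length were used in their stead. A gene was called compact when all its listed peaks over the 68 libraries spanned 400 nt or less, which is the size of small structured RNAs but is a lower bound on the true gene length. Compact genes were 18.9% of the 22843 genes with any peak and 42.5% of the 482 genes with a narrow peak. By library, 13.2% to 35.1% of narrow peaks lay in compact genes, against 1.30% to 7.30% of wider peaks. The mitochondrial genome (chrM) encodes ribosomal and transfer RNAs and respiratory chain subunits, and it held 3.35% to 33.3% of narrow peaks against 0.797% to 3.09% of wider ones.

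The 4 proteins differed in where their narrow peaks lay. For hnRNPc 32.1% were mitochondrial (70 peaks at 14 sites) and 30.3% lay in compact genes. For hnRNPA1 28.8% were mitochondrial (92 peaks at 22 sites) and 15.4% lay in compact genes. For hnRNPI only 6.27% were mitochondrial, while 31.9% (117 peaks at 34 sites) lay in a single long gene on chromosome X, ENSG00000229807.5. That gene also held 17.0% of the narrow peaks of hnRNPc (37 peaks at 27 sites), 4.39% of those of hnRNPA1 and 1.30% of those of RBFOX2. For RBFOX2 3.47% were mitochondrial, 32.8% lay in compact genes, and 62.4% (1204 peaks in 212 genes) lay in none of these places. The chromosome X gene had 82 sites over all proteins, the most of any gene. Next were ENSG00000251562.3 on chromosome 11 with 27 sites of 3 proteins and ENSG00000169710.6 on chromosome 17 with 26 sites, all of RBFOX2. At the other end, 212 of the 482 genes had 1 site.

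Within compact genes the centres of narrow peaks lay more often near the 5′ than the 3′ end of the listed span. Of 868 such peaks in 205 genes, with a median span of 95 nt, 42.3% had their centre in the fifth of the span nearest the 5′ end, 39.4% in the middle and 18.3% in the fifth nearest the 3′ end. The first share ran from 40.4% (RBFOX2) and 45.5% (hnRNPI) to 48.0% (hnRNPA1) and 50.0% (hnRNPc). Of the 1264 wider peaks in the same genes, 15.7% had their centre in the fifth nearest the 5′ end, 75.7% in the middle and 8.54% in the fifth nearest the 3′ end. Their median width was 30 nt, and the centre of a wider peak cannot lie as close to an end, so the shares of narrow and wider peaks do not compare like with like. The span is set by where peaks were listed, so its ends need not be the ends of the gene.

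**Figure D1:**
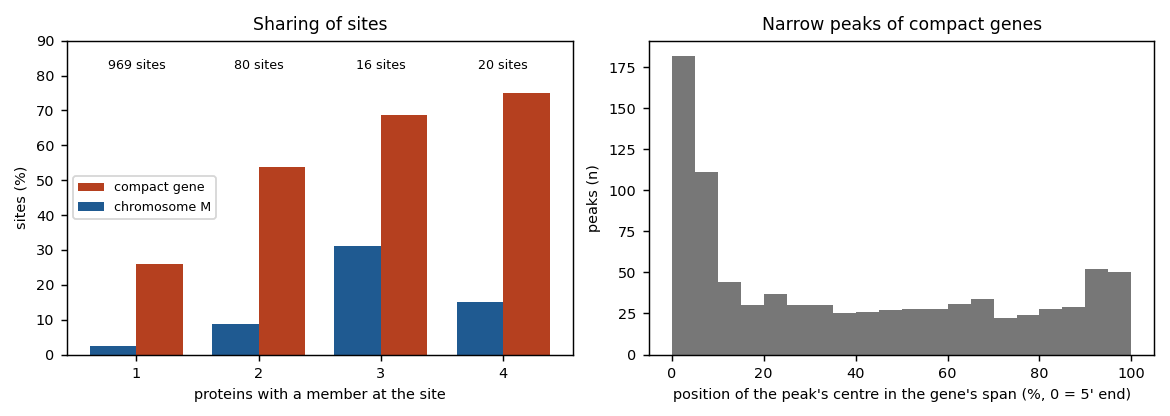
Left, percent of sites in compact genes (right bar) and on chromosome M (left bar) by how many proteins had a narrow peak there. The share in compact genes goes from 25.9% of 969 sites of 1 protein to 75.0% of 20 sites of 4 proteins. It was not taken for sites of wider peaks. Right, number of narrow peaks of compact genes by the position of their centre in the gene's listed span, from the 5′ end (0%) to the 3′ end (100%); 42.3% of 868 peaks lie in the fifth nearest the 5′ end.

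Most sites belonged to 1 protein. Of the 1085 sites, 969 had narrow peaks of 1 protein (730 of them RBFOX2), 80 of 2, 16 of 3 and 20 of all 4. Sites made in the same way from the wider peaks belonged to 1 protein in 93.1%, to 2 in 5.33%, to 3 in 0.951% and to 4 in 0.603%, and the 20 sites shared by all proteins were 1.84% of the narrow sites. The share of sites in compact genes was 25.9% for sites of 1 protein, 53.8% for 2, 68.8% for 3 and 75.0% for 4. The median highest read number rose over the same classes, from 295 to 1151, 5010 and 7923.5. The compact share was not taken for sites of wider peaks, so the rise need not be particular to narrow peaks. The commonest pairs were hnRNPI with RBFOX2 (44 sites), hnRNPA1 with RBFOX2 (14) and hnRNPc with RBFOX2 (12). Among the 20 sites of all proteins, 15 lay in compact genes, 3 on chrM and 2 in neither. Of these 20, 8 were overlapped by a listed peak in all 40 libraries compared and 15 in all 16 noUV libraries. The same shares were 36.4% and 64.6% for the 99 wider sites of all proteins, so 8 and 15 of 20 are both near that background.

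The site with the most reads was chr11:62609211-62609237 (hg19, minus strand), listed under both ENSG00000222328.1 and ENSG00000133316.10. Here and below, the value at a site is the highest read number of any listed peak over it, unscaled, and depth is unknown, so numbers of different libraries do not compare like with like. RBFOX2 had 163014 and 160867 in the source libraries, 174697 and 161580 with RecJ, 22905 and 16726 with PAGE, 24666 and 40720 without UV and PAGE, and 8466 and 11540 without UV with PAGE. The other source libraries had 8489 and 7332 (hnRNPA1), 14428 and 14551 (hnRNPc), and 16822 and 12924 (hnRNPI). The crosslinked RBFOX2 libraries without PAGE stood above every other library, and the site was listed in all 40.

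On the mitochondrial genome the leading site was chrM:2240-2263 (plus strand) in ENSG00000210082.2. hnRNPA1 had 107059 and 110734 in the source libraries, 9620 and 8007 with PAGE, and 77885 and 84016 without UV and PAGE. hnRNPc had 38063 and 41989, then 1004 and 7019 with PAGE, and 19480 and 14926 without UV and PAGE. Numbers in the PAGE libraries lay below those of all other conditions of the same protein, except in hnRNPI and RBFOX2, where the noUV libraries with PAGE were as low or lower (1481 and 1425 against 1660 and 1280 for hnRNPI). A second mitochondrial site, chrM:1447-1464 in ENSG00000211459.2, had its highest numbers without UV: in hnRNPA1 99181 and 104213 without PAGE and 73082 and 62333 with PAGE, against 23403 and 25752 in the source libraries and 2942 and 3007 in the crosslinked PAGE libraries. The 4 groups did not overlap.

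The leading hnRNPI sites differed in how their numbers moved across conditions. At chrX:73047362-73047370 (minus strand), in the chromosome X gene, hnRNPI had 23657 and 23009 in the source libraries, 10985 and 12667 with PAGE, 1822 and 2325 without UV and PAGE, and 399 and 749 without UV with PAGE. No hnRNPA1 library and no crosslinked hnRNPc or RBFOX2 library listed a peak there, while the 4 hnRNPc noUV libraries had 930 to 1843. At chr12:50850496-50850500 (plus strand, ENSG00000161813.16) hnRNPI had 15626 and 16555, then 4545 and 6385 with PAGE and 351 and 511 without UV and PAGE. That site was listed in 18 libraries, none of them of hnRNPA1 or hnRNPc. At chr11:10823043-10823049 (minus strand, compact gene ENSG00000238622.1) hnRNPI had 9311 and 10801, 9577 and 7063 with PAGE, and 6535 and 8736 without UV and PAGE. The PAGE libraries overlapped the source libraries there, while those without UV lay below them. The RBFOX2 source libraries had 439 and 468, and no library of hnRNPA1 or hnRNPc exceeded 110.

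Among RBFOX2 sites, chr10:103124647-103124654 (minus strand, compact gene ENSG00000222414.1) had 29666 and 30814 in the source libraries, 11848 and 10611 with PAGE, and 858 and 1246 without UV and PAGE. The site chr13:46948635-46948654 (minus strand, 3 overlapping identifiers, the shortest spanning 92 nt) had 5683 and 6203, then 1498 and 1072, then 139 and 181 in the same order. By contrast chr3:180949522-180949538 (plus strand, ENSG00000242808.2) had 26139 and 22137, 1458 and 1204 with PAGE, and 7022 and 8807 without UV and PAGE, so the PAGE libraries were the lower there. At chr14:50053359-50053370 (plus strand) the source libraries had 8457 and 10112, and those without UV and PAGE had 7211 and 10394, which overlap. RBFOX2 sites thus ranged from numbers that overlapped between conditions to numbers far below the source level without UV.

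Among the genes with the most sites, those with sites of RBFOX2 alone carried lower numbers. In ENSG00000169710.6 the site chr17:80044926-80044929 (minus strand) had 242 and 320 in the RBFOX2 source libraries, no listed peak and 103 with PAGE, and 63 and 66 without UV and PAGE. In ENSG00000160200.13, with 20 sites all of RBFOX2, chr21:44478942-44478950 (minus strand) had 291 and 310, then 284 and 277 with PAGE, and 139 and 85 without UV and PAGE. In ENSG00000251562.3 the site chr11:65267177-65267183 (plus strand) was led by hnRNPA1, with 9947 and 7855 in the source libraries, 804 and 704 with PAGE, and 5425 and 9048 without UV and PAGE. The last of these overlapped the source libraries, and the PAGE libraries lay below both.

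**Figure D2:**
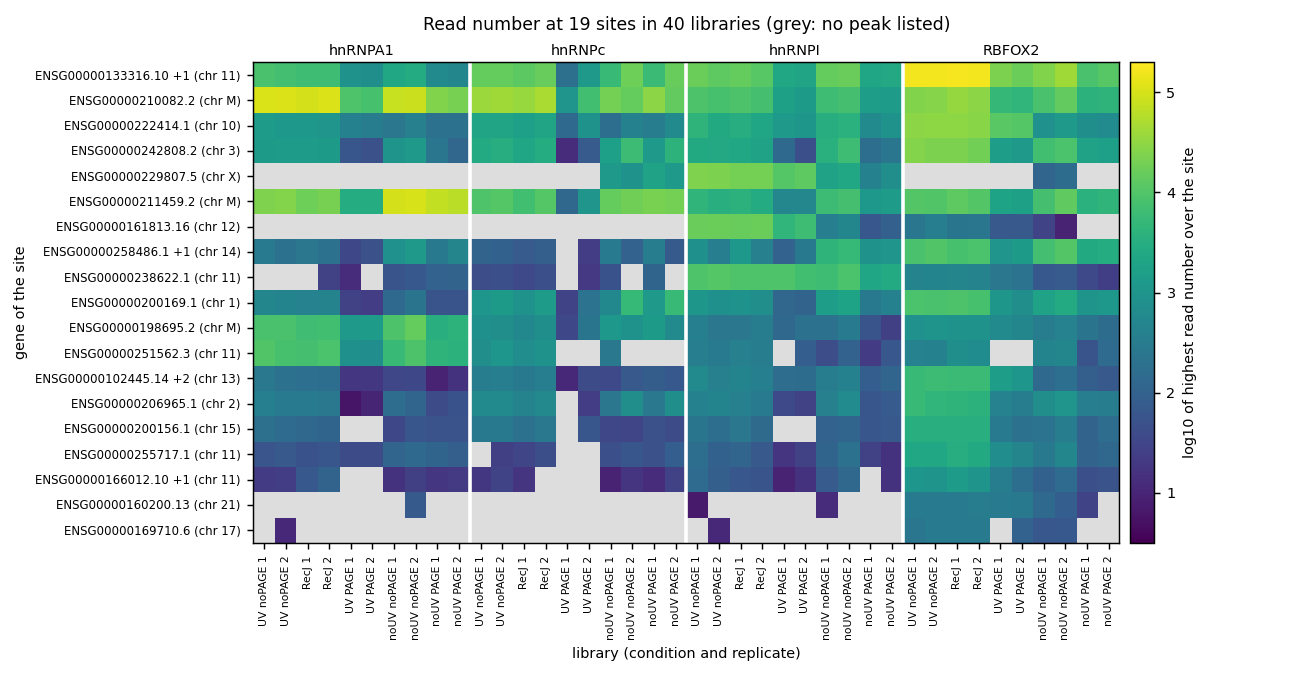
Log10 of the highest read number over 19 sites (rows, labelled by the first gene identifier, the count of further identifiers and the chromosome) in 40 libraries (columns, by protein, condition and replicate); grey marks no listed peak. The top row is the chromosome 11 site with 163014 and 160867 reads in the RBFOX2 source libraries, and the chromosome 12 row is grey in all hnRNPA1 and hnRNPc libraries.

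Between replicates of a source group, positions and read numbers were close. A member was overlapped by any listed peak of the other replicate in 94.6% ± 0.7995 (hnRNPA1), 95.6% ± 3.81 (hnRNPc), 98.3% ± 0.423 (hnRNPI) and 97.4% ± 0.478 (RBFOX2) of cases (SD, n = 2 target libraries). For wider peaks the same shares were 99.3%, 99.3%, 99.7% and 97.8%. Where a member of replicate 1 was found, its number in replicate 2 lay within 2-fold for 92.3% (hnRNPA1), 94.6% (hnRNPc), 93.0% (hnRNPI) and 89.7% (RBFOX2). The exact boundaries were less stable: 60.9%, 63.3%, 61.5% and 67.5% were overlapped by a peak that was itself 10 nt or less with 100 reads or more. The RecJ libraries gave 94.9%, 94.2%, 97.9% and 96.7% overlapped, with 99.0%, 98.9%, 99.7% and 97.1% for wider peaks. Moving members by 1000 nt along the strand left 2.81% to 18.7% overlapped, as means per protein and condition.

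With PAGE fewer narrow peaks were found again. For hnRNPA1 68.6% ± 2.24 of members were overlapped in the crosslinked PAGE libraries, against 95.7% of wider peaks. For hnRNPI it was 79.3% ± 0.234 against 91.5%. For RBFOX2 it was 84.5% ± 0.547 against 84.7%, which is no difference beyond the spread with all places and read numbers pooled. For hnRNPc it was 50.1% ± 17.2 against 61.6%, but the replicate 1 library of that group listed only 3268 peaks; replicate 2 alone gave 62.3% against 86.6%. These shares have n = 2 target libraries. Mitochondrial members were overlapped less often than the wider peaks there: 25.7% against 59.4% of wider mitochondrial peaks in hnRNPc, 30.4% against 72.3% in hnRNPI, 41.0% against 70.0% in RBFOX2 and 46.7% against 69.5% in hnRNPA1. Without chrM the shares of members were 61.6%, 82.7%, 86.1% and 77.5% in that order. Only 3.41% (hnRNPc) to 30.1% (RBFOX2) of members were overlapped by a PAGE peak that also met the rule.

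Without UV and PAGE most narrow peaks were still overlapped by a listed peak of any width. For hnRNPI 92.1% ± 1.80 of members were overlapped, against 47.6% of wider peaks. For RBFOX2 it was 84.9% ± 0.433 against 68.9%. For hnRNPA1 it was 78.8% ± 3.09 against 74.4%, and for hnRNPc 67.8% ± 6.19 against 77.9% (SD, n = 2 target libraries each). Without UV with PAGE the shares were 83.4% ± 1.05 against 21.7% for hnRNPI, 77.3% ± 1.03 against 51.7% for RBFOX2, 72.9% ± 0.191 against 76.2% for hnRNPA1 and 69.8% ± 2.08 against 78.9% for hnRNPc. So members of hnRNPI and RBFOX2 were found more often than wider peaks without UV, and members of hnRNPc less often. This describes peaks chosen on their width and number. The noUV lists held 18690 to 78945 peaks for hnRNPI and 22911 to 61242 for RBFOX2. Those of hnRNPA1 held 146915 to 196278 and those of hnRNPc 187729 to 299616. Whether list length accounts for the difference between proteins was not tested. Fewer members were overlapped by a peak that also met the rule. Without UV and PAGE these were 34.1% (hnRNPI), 18.8% (RBFOX2), 40.2% (hnRNPA1) and 30.7% (hnRNPc). Without UV with PAGE they were 9.25%, 6.22%, 22.0% and 30.0% in that order.

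**Figure D3:**
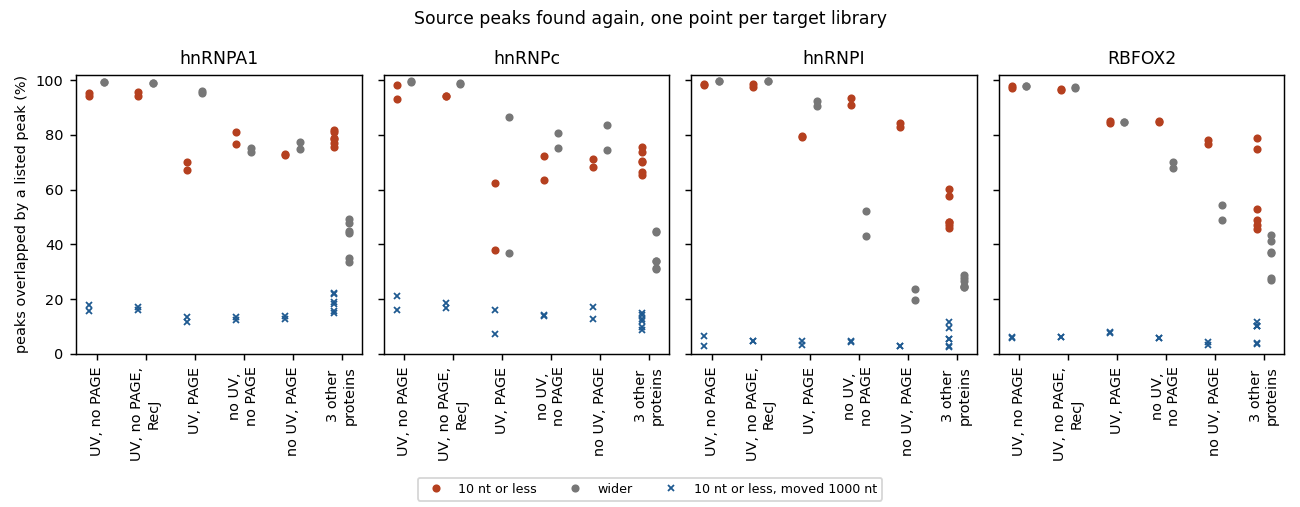
Percent of source peaks overlapped by at least 1 nt of a listed peak, for peaks of 10 nt or less (red), wider peaks (grey) and the narrow peaks moved by 1000 nt (crosses); each point is 1 target library, by protein and condition. Narrow and wider peaks stand furthest apart for hnRNPI without UV with PAGE, at means of 83.4% and 21.7%.

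Narrow peaks carry more reads than wider ones (library medians of 366 to 1156.5 against 139 to 160), so the shares were also taken among peaks of like read number. For hnRNPI without UV and PAGE, peaks with 100 to under 300 reads were overlapped in 90.4% when narrow and 43.8% when wider. From 300 to under 1000 reads the shares were 88.8% and 80.4%, and at 1000 or more 94.7% and 91.3%. For RBFOX2 the same pairs were 73.5% and 62.8%, 91.6% and 88.3%, and 89.2% and 92.0%. For hnRNPA1 they were 93.8% and 74.6%, 70.5% and 72.0%, and 63.4% and 78.3%, so the order turned with the read number. For hnRNPc they were 85.1% and 78.1%, 50.0% and 78.3%, and 62.4% and 72.3%. Below 300 reads narrow peaks were found more often than wider ones in each of the 4 proteins; above it the gap was smaller in hnRNPI, and narrow peaks were found less often in hnRNPA1 and hnRNPc and, at 1000 reads or more, in RBFOX2. With 1000 or more reads and PAGE, narrow against wider gave 58.0% and 94.6% for hnRNPA1, 44.6% and 86.2% for hnRNPc, 89.0% and 95.4% for RBFOX2, and 86.0% and 81.9% for hnRNPI, the one protein with the narrow share higher.

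**Figure D4:**
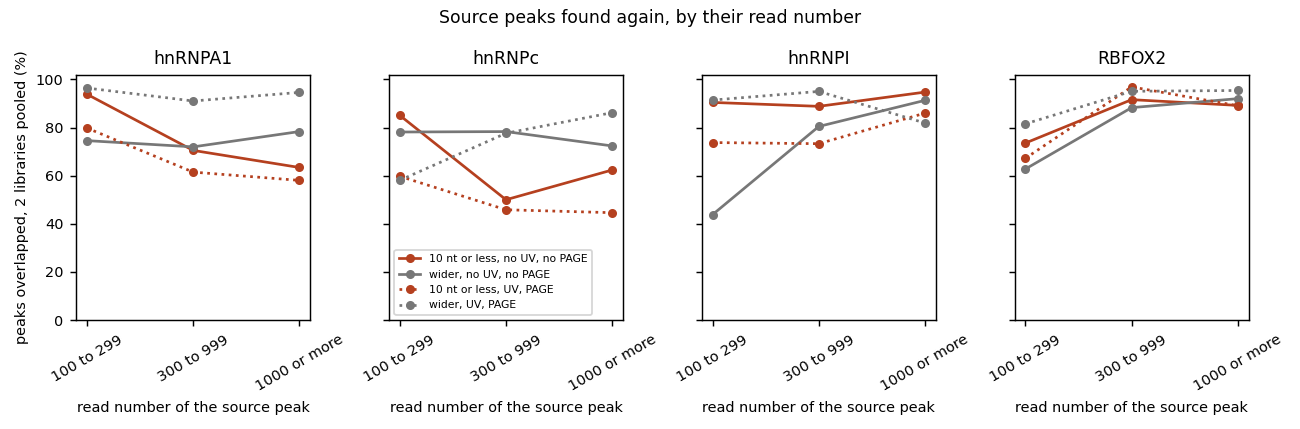
Percent of source peaks overlapped, both target libraries pooled, by the read number of the source peak, for peaks of 10 nt or less (red) and wider peaks (grey), without UV and PAGE (solid) and crosslinked with PAGE (dotted). For hnRNPI without UV the solid lines for narrow and wider peaks draw close as the number grows, from 90.4% and 43.8% to 94.7% and 91.3%.

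The place of a narrow peak went with its recurrence. In compact genes both narrow and wider peaks were mostly found without UV and PAGE: 96.9% and 97.1% for hnRNPI, 95.9% and 95.6% for hnRNPA1, 93.7% and 94.9% for RBFOX2, and 85.6% and 91.9% for hnRNPc. Outside compact genes, chrM and the chromosome X gene, the shares were 89.6% against 46.3% for hnRNPI, 82.4% against 66.7% for RBFOX2, 86.0% against 74.5% for hnRNPA1 and 80.0% against 79.1% for hnRNPc. On chrM narrow peaks were found less often than wider ones in each protein: 78.3% against 85.7% in hnRNPI, 62.0% against 83.9% in hnRNPA1, 59.0% against 81.8% in RBFOX2 and 57.1% against 85.0% in hnRNPc. In the chromosome X gene narrow peaks were found less often than wider ones except in hnRNPI. The shares were 42.9% against 53.2% in hnRNPA1, 40.5% against 48.1% in hnRNPc and 48.0% against 67.7% in RBFOX2. There 93.6% of the 234 hnRNPI look-ups succeeded, against 89.3% of wider peaks. Numbers of these hnRNPI members were lower by a median of 2.87 and 2.30 on the log2 scale in the 2 libraries without UV and PAGE. hnRNPI members in compact genes changed by a median of 0.31 and 0.53 on that scale in the same libraries. Wider hnRNPI peaks changed by -2.70 and -1.93 in the X gene and by -2.15 and -2.14 as a whole, so the change of the X gene members was like that of wider peaks, and the compact genes stood apart.

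Read numbers at sites found again were lower with PAGE. In the 2 crosslinked PAGE libraries of hnRNPA1 the median log2 change from the source library was -2.67 and -2.81 for mitochondrial members, -2.57 and -2.45 for compact genes, and -1.14 and -1.19 for the remaining genes. Wider peaks as a whole changed by -0.81 and -0.86, but wider mitochondrial peaks by -3.35 and -3.36, more than the members there. For RBFOX2, members in compact genes changed by -1.19 and -1.64 and members of the remaining genes by -1.13 and -1.45, where wider peaks as a whole changed by -0.03 and -0.31 and wider peaks of compact genes by -0.97 and -1.47. These medians cover only peaks found again, and a common shift of a library depends on its unknown depth. For hnRNPI, members as a whole changed by -1.42 and -1.27 and wider peaks by -1.02 and -1.43, so the order differed between replicates. For hnRNPc, members changed by -4.63 and -2.10 and wider peaks by -3.81 and -1.54, the first of each in the library of only 3268 peaks. A fixed order of places was not seen: in hnRNPI compact genes changed by -1.93 and -1.81 and the remaining genes by -2.14 and -2.08.

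Sites with a narrow peak in both source replicates were followed through the 4 noUV libraries of their own protein. All 4 listed them for 76.1% of 67 hnRNPA1 sites, 73.7% of 38 hnRNPc sites, 79.7% of 69 hnRNPI sites and 74.0% of 389 RBFOX2 sites. The same shares over sites of wider peaks were 75.4%, 71.2%, 16.3% and 41.1%, so hnRNPA1 and hnRNPc were near that background and hnRNPI and RBFOX2 above it. The noUV lists of hnRNPI and RBFOX2 were also the shorter ones, and the part of list length was not tested. None of the 4 libraries listed 5.97% of the hnRNPA1 sites (4 sites; wider background 9.5%), 13.2% of the hnRNPc sites (5; 5.36%), 4.35% of the hnRNPI sites (3; 34.3%) and 5.40% of the RBFOX2 sites (21; 9.9%). Both crosslinked PAGE libraries listed 3 of the 4 hnRNPA1 sites, 1 of the 5 of hnRNPc, 0 of the 3 of hnRNPI and 9 of the 21 of RBFOX2. This count was not taken for sites of wider peaks. An hnRNPA1 example is chr11:65267351-65267359 in ENSG00000251562.3, with 1789 and 3591 in the source libraries, 783 and 875 with PAGE and no listed peak in its 4 noUV libraries. Both RBFOX2 libraries without UV and PAGE did list a peak there, with 251 and 297, as did 1 hnRNPI RecJ library, with 235. An RBFOX2 example in a compact gene is chr17:7809526-7809533 (ENSG00000252835.1), with 305 and 219, then 92 and 130, and no listed peak in any library of the other proteins. Both examples were chosen after their values were seen.

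Narrow peaks also lay on peaks of the other proteins more often than wider ones did. In the source libraries of the 3 other proteins, members were overlapped in 78.8% ± 2.36 for hnRNPA1, 70.3% ± 4.02 for hnRNPc, 58.1% ± 14.8 for RBFOX2 and 51.2% ± 6.08 for hnRNPI (SD, n = 6 target libraries). The wider peaks gave 42.4%, 36.6%, 35.5% and 26.2%. A peak that also met the rule overlapped 24.4%, 41.7%, 7.23% and 23.5% of members in that order. For RBFOX2 the share was 76.9% in hnRNPI libraries (wider peaks 37.0%), 49.3% in those of hnRNPA1 (42.3%) and 48.1% in those of hnRNPc (27.3%). For hnRNPI the members of the chromosome X gene were overlapped in 1.42% of look-ups, and without that gene the hnRNPI share was 74.9%. In compact genes 98.3%, 98.2%, 92.1% and 73.6% of hnRNPA1, hnRNPc, hnRNPI and RBFOX2 members were overlapped, against 95.6%, 98.1%, 96.2% and 80.6% of wider peaks there. At 1000 reads or more members and wider peaks gave 82.6% and 63.7% for hnRNPA1, 86.4% and 59.5% for hnRNPc, 80.1% and 83.4% for RBFOX2, and 35.2% and 48.9% for hnRNPI.

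The narrow share is the percent of peaks with 100 reads or more that were 10 nt or less. It was taken alike in each library and tested across conditions. It uses the width and read limits of the rule, and the source libraries are those the members came from. Its p-values therefore hold for those limits. In the source libraries RBFOX2 had 11.2% ± 0.110, hnRNPA1 3.25% ± 0.0331, hnRNPc 2.87% ± 0.0442 and hnRNPI 1.96% ± 0.319 (SD, n = 2). Without UV and PAGE it was 17.5% ± 0.424, 9.94% ± 1.35, 11.1% ± 2.07 and 6.61% ± 0.0214 in the same order. All 4 proteins rose and no groups overlapped; the mean difference was 6.47 percentage points (exact two-sided permutation test within proteins, p = 0.00154, the smallest possible; adjusted p = 0.00309 over 4 tests). Without UV with PAGE the narrow share was 21.7% ± 1.91, 11.97% ± 0.0859, 9.72% ± 1.92 and 14.9% ± 1.34, again in that order. It was higher than in the crosslinked PAGE libraries in all 4 proteins, by 9.75 points on average (exact permutation p = 0.00154, adjusted p = 0.00309). Counting only peaks with 1000 reads or more, the differences were 1.61 and 4.03 points and neither call held (exact permutation p = 0.650 and p = 0.483). Over all listed peaks, with no read limit, the differences were 1.30 and 2.50 points (exact permutation p = 0.00463 and p = 0.00154). Without PAGE the groups then overlapped for hnRNPc, where 1 noUV library had 2.39% against 2.48% and 2.45% in the source libraries. The noUV PAGE libraries of hnRNPI had 215 and 265 peaks with 100 reads or more, so their shares rest on 30 and 42 narrow peaks.

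The direction of the PAGE difference varied between proteins among peaks with 100 reads or more. With PAGE it was 1.80% ± 0.374 for hnRNPA1 and 5.70% ± 0.0501 for RBFOX2, below the source libraries. It was 5.95% ± 1.51 for hnRNPc, from 4 and 27 narrow peaks, and 5.81% ± 4.45 for hnRNPI (2.67% and 8.96%), above them. The groups did not overlap in any protein, and the mean difference of 0.0103 points was not significant (exact permutation p = 0.992, adjusted p = 0.992). Over all listed peaks, a setting added after the data were seen, the difference was 0.754 points (exact permutation p = 0.0278). There hnRNPc with PAGE lay below the source libraries (0.612% and 1.51% against 2.48% and 2.45%), as hnRNPA1 and RBFOX2 did, and hnRNPI overlapped them. With RecJ the share was higher in all 4 proteins by a mean of 0.402 points (exact permutation p = 0.0262, adjusted p = 0.0350), although the groups overlapped for hnRNPA1 and hnRNPc. Over all listed peaks the RecJ difference turned sign, to -0.0322 points (exact permutation p = 0.176). The call at 100 reads also rested on few libraries: leaving out any 1 of 9 of the 16 gave an exact p of 0.0509 to 0.136. These were hnRNPA1 RecJ replicate 1, hnRNPc RecJ replicate 1, both hnRNPc source replicates, hnRNPI RecJ replicate 2, hnRNPI source replicate 2, RBFOX2 RecJ replicate 1 and both RBFOX2 source replicates.

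**Figure D5:**
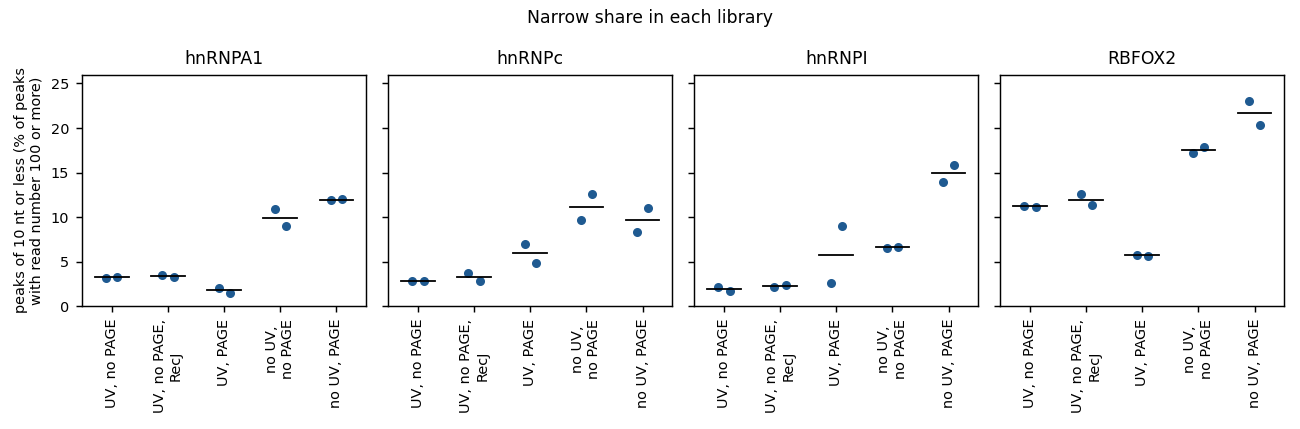
Percent of peaks with a read number of 100 or more that are 10 nt or less in each of 40 libraries (points) with the mean of 2 replicates (bars), by protein and condition. The points without UV lie above the crosslinked points of the same PAGE condition in all 4 proteins, while the crosslinked PAGE points are lower than those without PAGE for hnRNPA1 and RBFOX2 and higher for hnRNPc and hnRNPI at this read limit.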

How the data were processed

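Each library has 1 peak list, deposited on hg19 per the submitters' processing notes, which name bcl2fastq, STAR 2.7.3a and UMI-tools 1.0.1. The lists give intervals, a peak p-value as deposited by the authors, and a last number in the peak name that was read as reads over the peak; its meaning and any scaling are not stated, and the depth is unknown. RNA classes by gene symbol could not be assigned, since 0 identifiers were matched; compact span and chromosome, chosen after the data were seen, replaced them. Overlap means 1 nt or more on the same strand. Members that overlapped or touched were joined into sites. The narrow share was compared by exact permutation within protein, Benjamini-Hochberg adjusted over 4 tests; recurrence is descriptive. Genes were named by rule: the 6 per protein with the highest number in the lower of both replicates, the 6 with most sites, and up to 10 with a site of all 4 proteins, each at its highest site. Members, lists and tests were chosen with earlier results of these data known. The overlap search and permutation test were checked on simulated data. Python 3.11.15, numpy 2.4.6, pandas 2.3.3 and matplotlib 3.10.9 were used.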

Additional observations from a re-analysis of the deposited data

Results flagged for a closer look

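Among peaks with 100 reads or more, the PAGE difference in narrow share had opposite signs in different proteins, with every source library on one side of every PAGE library within each protein. Source minus PAGE was 1.45 percentage points for hnRNPA1 and 5.53 for RBFOX2, and -3.08 for hnRNPc and -3.85 for hnRNPI. Over all listed peaks the signs were not the same: hnRNPc gave 1.40 points and the hnRNPI groups overlapped. The difference between proteins was not tested, and 1 hnRNPc PAGE library had only 57 peaks with 100 reads or more.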

How the results depend on the processing

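Calls here use the unadjusted exact permutation p. The higher narrow share without UV kept its call under all alternatives other than a read limit of 1000, and leaving out single libraries gave 6.10 to 6.84 points without PAGE and 8.97 to 10.5 points with PAGE. At that limit, chosen after seeing the data as were no read limit, leaving out the chromosome X gene and the crossed numbers, it was 1.61 and 4.03 points. The RecJ difference lost its call with a width limit of 5 nt (0.186 points), a read limit of 200 (0.478), 50 (0.0911) or 1000 (1.57), and with the replicate block (0.402 points, exact p = 0.0547), and turned sign with no read limit (-0.0322); without single libraries it ran from 0.250 to 0.555. The PAGE difference, not significant, turned sign with a width limit of 20 nt (-0.559) or 5 nt (-0.179), a read limit of 200 (-0.0604), overlapping peaks merged (-0.295) and without the chromosome X gene (-0.627), became 8.07 points (exact p = 0.0432) at a read limit of 1000 and 0.754 points (exact p = 0.0278) with none, and ran from -0.776 to 0.797 without single libraries. The cause of these changes was not tested.

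Replicate numbers are shared between groups only as numbers: deviations of same-numbered libraries correlated at -0.13 to 0.06 over genes in 16 protein comparisons. The replicate block changed no other call. Crossing the hnRNPc numbers for UV omitted with PAGE, where the correlation was -0.13, gave an exact p of 0.00781.

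Recurrence, as the mean over proteins, was 96.5% in the other replicate, 95.9% with RecJ, 70.7% with PAGE, 80.9% without UV and PAGE, 75.8% without UV with PAGE and 64.6% in other proteins. Requiring peak centres within 10 nt gave 83.8%, 82.7%, 44.9%, 61.3%, 49.1% and 44.7%. Using only the 3000 target peaks with the highest numbers gave 84.7%, 84.2%, 49.1%, 66.8%, 66.8% and 40.6%. A read limit of 50 gave 93.4% in the other replicate, 92.5% with RecJ and 72.6% without UV with PAGE. A read limit of 1000 gave 98.9% in the other replicate and 98.7% with RecJ. A width limit of 5 nt gave 94.6% with RecJ, and 20 nt gave 72.6% without UV with PAGE. Merging overlapping peaks gave 94.8% with RecJ, 76.1% without UV and PAGE and 69.8% without UV with PAGE. Without chrM it was 79.9%, and without the chromosome X gene 77.3%, without UV with PAGE; without that gene it was 74.2% in other proteins. Leaving out single libraries gave 95.6% to 96.2% with RecJ, 67.6% to 73.7% with PAGE, 79.8% to 81.98% without UV and PAGE, 74.8% to 76.9% without UV with PAGE and 63.1% to 65.5% in other proteins. It was not possible for the other replicate, where leaving out a library leaves no pair. All other alternatives stayed within 1 SD between target libraries. That SD was 8.70 points with PAGE and 8.33 in other proteins, against 0.731 with RecJ, so it is a loose limit for the former. With PAGE, values from 64.3% (overlapping peaks merged) to 77.0% (without chrM) lay within it. In other proteins, 58.1% (overlapping peaks merged) to 71.0% (read limit of 1000) did. No read totals were used, so limits of detection are unknown.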

Other observations

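Libraries titled Background with a mass range, made with the hnRNPc antibody per the labels, also listed peaks over these sites. The labels give them fewer cells and less RNase than the source libraries, so they are not matched to those. In the 8 lists, of 303 to 6716 peaks, 20.2% to 33.7% of the 104 hnRNPc sites were overlapped, against 3.85% to 8.65% after a move of 1000 nt. Of the 20 sites of all 4 proteins, 8 to 12 were overlapped per list. These shares were not taken for sites of wider peaks, so they do not set narrow peaks apart. The narrow share of the 8 lists ran from 3 of 20 peaks with 100 reads or more to 10 of 22 (45.5%).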
